A study of Mus musculus with 28 samples.

Results

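Bulk RNA-sequencing libraries of mouse tail tendon fascicles carried very different amounts of skeletal muscle transcripts. For each of the 28 libraries of the series, a muscle index was computed as the mean log2(CPM + 1) of 4 genes, Ckm, Acta1, Mylpf and Tnnt3, where CPM is a gene's count relative to the library total, the usual counts-per-million scale. The libraries were then grouped by this measured index: within each of the 4 genotype-by-stage groups they were split at the group median into high and low, and the median library of a group of odd size was left out. This placed all 28 libraries, as 13 high, 13 low and 2 middle ones. Because the libraries were selected on measured values, the differences between high and low libraries are a description, and no test was applied to them.

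The mice were Fosl-2(Tg) transgenics (Tg) and nontransgenic controls from the same breeding (WT), all on the C57BL/6 background, and each library came from 1 mouse. The early stage held 7 WT and 8 Tg mice of 6 to 8 weeks, and the established stage held 6 WT and 7 Tg mice older than 14 weeks. The early stage held males only, and the established stage 11 females and 2 males, a single male per genotype. The Tg mice carry a vector at a random position, in which the H2Kb promoter of the major histocompatibility complex class I drives murine Fosl2 joined to eGFP, and this promoter is not specific to tendon cells. Fosl2, which encodes an AP-1 transcription factor, ranged from 58.8 to 136 CPM in WT early and from 63.4 to 156 in Tg early libraries. At the established stage it ranged from 78.1 to 169 in WT and from 121 to 160.1 in Tg libraries. The genotypes overlapped at both stages, and the gene did not pass the test at either (edgeR quasi-likelihood test, log2 fold change 0.20, SE 0.24, FDR 0.918 early, and 0.38, SE 0.15, FDR 0.142 established), so Fosl2 counts alone did not separate the labels.

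Skeletal muscle fibres shorten when myosin thick filaments pull on actin thin filaments, which happens once calcium released from the sarcoplasmic reticulum binds the troponin complex. Fast fibres draw their energy mainly from creatine phosphate and glycogen, and slow fibres mainly from mitochondrial respiration. Fibres lie in a dense capillary bed, are reached by motor axons, and are repaired by satellite cells. Tail tendons transmit the force of muscles at the base of the tail to the vertebrae and hold few vessels themselves, and the tendon fascicle itself has no muscle fibres.

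The index spanned a wide range in every group. It ran from 3.12 to 9.41 in WT early libraries (median 6.70), from 5.86 to 9.53 in Tg early libraries (median 8.27), from 2.78 to 10.51 in WT established libraries (median 6.68) and from 2.69 to 9.70 in Tg established libraries (median 5.48). Each step of 1 on this scale is a doubling, and the range was narrowest in Tg early. On either side of the split, the highest low library and the lowest high library stood at 5.19 and 8.35 in WT early and at 5.51 and 7.84 in WT established. They stood much closer in Tg established, at 5.09 and 6.01, and nearly touched in Tg early, at 8.20 and 8.34. The mean index of the high libraries exceeded that of the low libraries by 4.97 in WT early, 5.66 in WT established and 3.91 in Tg established, but by 1.83 in Tg early, where the lowest library stood at 5.86. The male library had the highest index in both established groups, 10.51 in WT and 9.70 in Tg, but the female WT established replicate 6 stood close, at 10.33. With a single male per group, sex cannot be told apart from the mouse, and its part in the results was not tested. Without these 2 males, 452 genes met the definition of higher with muscle given below, against 470 with them.

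**Figure D1:**
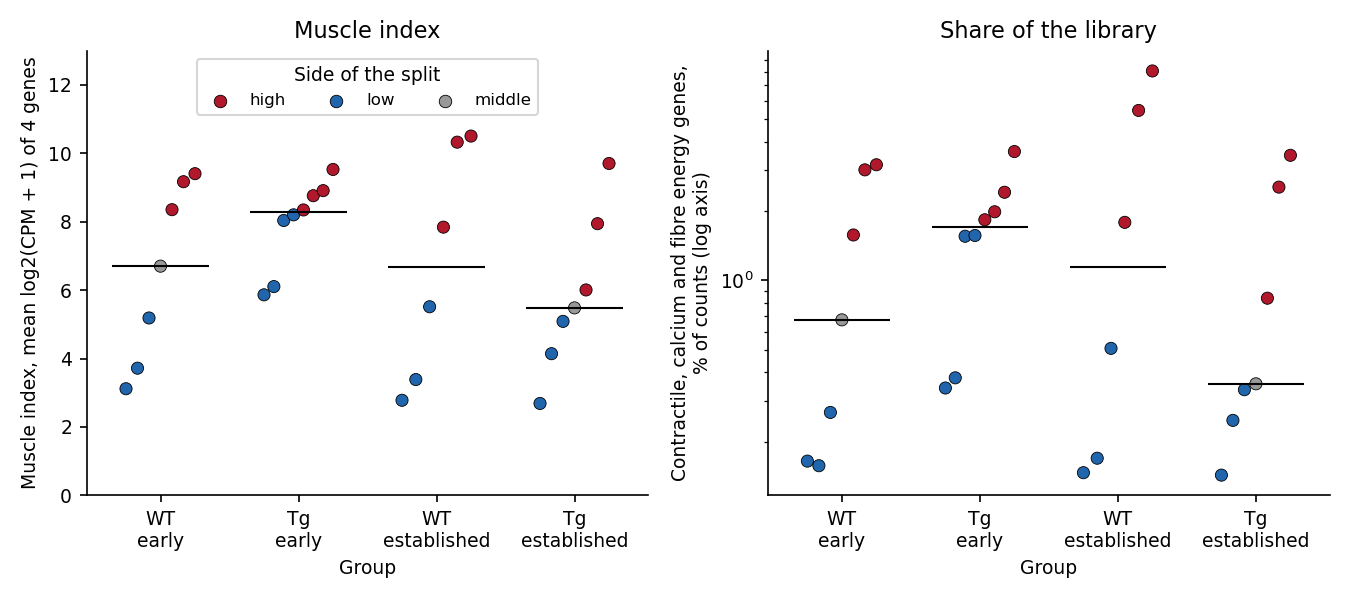
Muscle index (left, mean log2(CPM + 1) of 4 genes) and the share of counts on the contractile, calcium and fibre energy genes (right, percent, log axis) for each library by group. Each point is 1 library, coloured by its side of the split, and the line is the group median. The Tg early libraries start at 5.86, above the lowest libraries of the other groups, and the WT established libraries reach 10.51.

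Ckm encodes the creatine kinase of muscle, Acta1 skeletal alpha-actin, Mylpf the regulatory light chain of fast myosin and Tnnt3 the troponin T of fast fibres. Ckm ranged from 5.18 to 553 CPM in WT early (median 77.4), from 39.1 to 744 in Tg early (median 293), from 4.11 to 1537 in WT established (median 104) and from 4.51 to 706 CPM in Tg established libraries (median 47.8). Acta1 was the most abundant of the 4, with a highest value of 3376 CPM in WT established and a lowest value of 9.68 in Tg established. Mylpf reached 811 CPM in WT established and fell to 2.16 in the lowest Tg established library. Tnnt3 ranged from 7.78 CPM in WT early to 1329 in WT established. High and low libraries of the same group did not overlap in Ckm, Mylpf and Tnnt3, and Acta1 overlapped in Tg early, at 768 CPM in the lowest high and 831 in the highest low library. These index values use plain CPM, and all other CPM values are scaled by TMM factors.

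The upstream sequences of these 4 genes are printed because these genes define the index. Each run holds the 250 bases before the start of the canonical transcript (GENCODE M39, GRCm39), 5′ to 3′ on the strand of the gene. Capitals mark the E-box CAGCTG, a sequence bound by MyoD-family factors, and the CArG box, bound by serum response factor, on either strand.
Ckm (chr7:19144583-19144832, plus strand): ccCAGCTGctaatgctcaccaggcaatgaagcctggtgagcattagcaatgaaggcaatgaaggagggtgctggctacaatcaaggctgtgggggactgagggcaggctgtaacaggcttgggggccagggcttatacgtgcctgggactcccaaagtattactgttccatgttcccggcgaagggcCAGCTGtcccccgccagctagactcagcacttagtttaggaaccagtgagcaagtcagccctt
Acta1 (chr8:124621687-124621936, minus strand): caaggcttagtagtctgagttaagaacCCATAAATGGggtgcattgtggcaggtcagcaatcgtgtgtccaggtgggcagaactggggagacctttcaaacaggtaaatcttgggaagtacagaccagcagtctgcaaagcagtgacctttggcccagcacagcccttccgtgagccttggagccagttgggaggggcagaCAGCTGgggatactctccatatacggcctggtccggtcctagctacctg
Mylpf (chr7:126810530-126810779, plus strand): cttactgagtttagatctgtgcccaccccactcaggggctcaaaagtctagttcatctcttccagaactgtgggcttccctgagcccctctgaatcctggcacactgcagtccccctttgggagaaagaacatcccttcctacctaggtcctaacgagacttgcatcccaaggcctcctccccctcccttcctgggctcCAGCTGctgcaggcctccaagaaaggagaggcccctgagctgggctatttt
Tnnt3 (chr7:142052170-142052419, plus strand): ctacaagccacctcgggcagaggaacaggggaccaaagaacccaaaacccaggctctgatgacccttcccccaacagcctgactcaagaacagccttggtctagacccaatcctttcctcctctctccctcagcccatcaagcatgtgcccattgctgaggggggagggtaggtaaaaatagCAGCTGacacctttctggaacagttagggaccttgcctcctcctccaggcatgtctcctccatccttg
The E-box lies from -63 to -58 in Ckm (and again from -248), from -49 to -44 in Acta1, from -51 to -46 in Mylpf and from -68 to -63 in Tnnt3, counted from the transcript start. It stood within 250 bases upstream in 11.6% of the 14442 protein-coding genes with a measured difference, and in 20.1% of the 463 protein-coding genes counted as higher with muscle, as defined next. For the MEF2 site the shares were 2.14% and 9.5%, and for TATAAA 7.89% and 13.6%. For CATTCC they were 11.8% and 14.9%, and for the CArG box 1.19% and 1.94%. The marked motifs do not overlap each other in the 4 printed runs, and a match describes the sequence only.

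For each gene, the difference between the high and the low libraries was taken on log2 CPM within each group and averaged over the 4 groups. A gene was counted as higher or lower with muscle where this mean was at least 1 in size with the same sign in 4 of 4 groups. Of 16082 genes, 470 were counted as higher (2.92%) and 4 as lower (0.0249%), and the median of all genes was -0.02. Of the 470, 153 differed by 3 or more, 113 belonged to a gene list and 357 to none. In 101 genes every high library stood above every low library in 4 of 4 groups, and 0 genes showed the opposite. The counts per list below stand beside these 2 background shares and, since the split used the same libraries, nothing is read from their excess.

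The sarcomere differed as a unit between high and low libraries. All 30 thick and thin filament and Z-disc genes were counted as higher, with a median difference of 4.04 and a range from 1.72 to 5.01. The list holds the index genes Tnnt3 and Mylpf, whose difference was fixed by the split. Myh1, the fast IIx myosin heavy chain, ranged from 3.60 to 1415 CPM in the low libraries (median 68.8) and from 451 to 6189.5 in the high libraries (median 1907). Within groups the high libraries stood above the low ones in 3 of 4 groups, with an overlap in Tg early, and the mean difference was 5.01 ± 2.07 (SD, n = 4 groups). Tnni2, the inhibitory troponin of fast fibres, ranged from 0.837 to 97.0 CPM in low and from 12.98 to 511 in high libraries. Xirp2, an actin-binding repeat protein, had a median of 15.3 CPM in low and 356 CPM in high libraries, and both genes had every high library above every low library in 4 of 4 groups. The smallest differences belonged to Cmya5 (2.09 ± 0.73) and Tpm1 (1.72 ± 0.82), and both were already present in the low libraries, at medians of 90.5 and 134 CPM.

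Fast myosins made up most of the heavy chain signal. Per kilobase of exon, the median level in the high libraries was 214 CPM per kb for Myh1, 61.7 for Myh2 (fast IIa) and 56.1 for Myh4 (fast IIb). The slow chain Myh7 stood at 0.363, and the embryonic Myh3 and perinatal Myh8 at 1.09 and 0.431 CPM per kb. As a share of these 6 chains, Myh1 took a median of 65.1%, Myh4 17.4%, Myh2 16.0% and Myh7 0.111%. The proportions varied, since Myh4 ranged from 1.11 to 182 CPM per kb among high libraries while Myh1 ranged from 50.7 to 695. These chains, other than Myh1, were chosen after their values were seen.

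The slow and cardiac-type list was mixed, with 5 of 13 genes counted as higher and a median of 1.27. Myl2, the slow regulatory light chain, differed by 2.61 ± 1.71 and by 5.14 in WT established, where the split was widest. Casq2, the calsequestrin of slow and cardiac muscle, differed by 1.98 ± 0.70 and Tnnt1, slow troponin T, by 1.63 ± 1.37. Myh7 was not counted, since its difference was -0.37 in WT early and 4.88 in WT established. Atp2a2, the calcium pump that most cells also use, stood at -0.16 ± 0.06 and Myh7b at -0.33 ± 0.13. Myh6, the atrial myosin, did not pass the filter and had at most 9 counts in a library.

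Calcium handling and excitation followed the sarcomere, with 16 of 17 genes higher and a median of 3.83. Atp2a1, the fast calcium pump, ranged from 10.9 to 847 CPM in low libraries (median 35.8) and from 241 to 4151 in high libraries (median 1229). Trdn, the triadin of the calcium release complex, differed by 4.36 ± 1.85 and Cacna1s, the voltage sensor of the T-tubule, by 4.36 ± 1.92. Stac3, which couples that sensor to calcium release, differed by 1.48 ± 0.67. Asph, which many cells express, was the 1 gene not counted (0.12 ± 0.24), with 76.9 to 111 CPM in low and 72.0 to 121 in high libraries.

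Of 18 genes of creatine, glycogen and glycolysis, 15 were higher, with a median of 2.30. The index gene Ckm was among the 15, as the split fixed. Myoglobin, encoded by Mb, differed most, from a low median of 7.02 to a high median of 222 CPM (4.63 ± 2.16). Ampd1, the muscle AMP deaminase, differed by 3.77 ± 1.62. Ldha and Phka1 were not counted and differed by 0.60 ± 0.46 and 0.58 ± 0.26. Both were already present in the low libraries, at medians of 144 and 52.7 CPM.

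Some genes of the developing fibre and precursor lists were also higher. Of 7 developmental genes, 5 were higher with a median of 3.24, among them Des, the desmin of the Z-disc (4.45 ± 1.92), and the myogenic factors Myf6 (3.90 ± 1.53) and Myod1 (3.28 ± 1.44). Vim and Ncam1, also expressed by other cells, stood at -0.11 ± 0.15 and -0.35 ± 0.32. The listed developmental genes Myog, Mymk, Chrng and Mymx did not pass the filter, with at most 16, 15, 11 and 2 counts in a library. Of 7 satellite cell genes, 4 were higher with a median of 1.51. Notch3 of this list is also on the list of pericytes and vascular smooth muscle below. Cdh15, M-cadherin, had a low median of 0.126 and a high median of 2.36 CPM and did not overlap in 4 of 4 groups, while Sdc4 and Fgfr4 differed by -0.22 ± 0.15 and -0.41 ± 0.97. The defining genes Pax7 and Myf5 did not pass the filter, with at most 27 and 10 counts in a library.

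**Figure D2:**
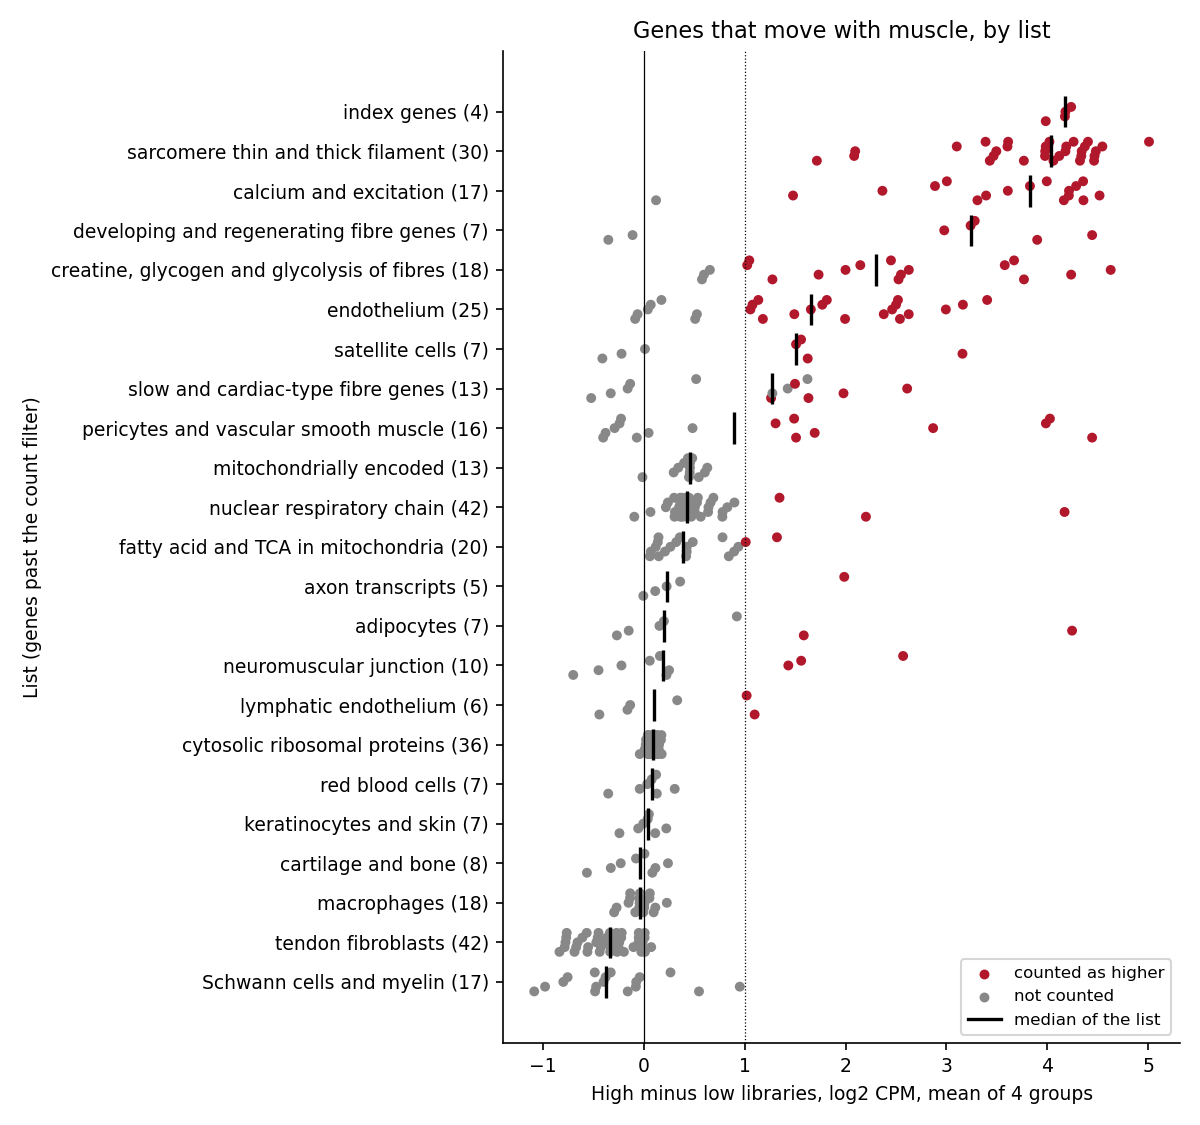
Difference between high and low libraries for every listed gene past the count filter (log2 CPM, mean of the 4 groups), by gene list ordered by median. Red points were counted as higher with muscle, grey points were not, the thick bar is the list's median and the dotted line is 1. Contractile lists lie near 4, endothelium at 1.66, mitochondrial lists near 0.4, and tendon fibroblasts at -0.33.

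Blood vessel genes came along with muscle. In the endothelial list, 18 of 25 genes were higher and 0 lower, with a median of 1.66. Fabp4, a fatty acid binding protein of capillaries and adipocytes, ranged from 0.126 to 8.61 CPM in low libraries (median 0.499) and from 2.82 to 12.1 in high libraries (median 8.77). Gpihbp1, the capillary anchor of lipoprotein lipase, differed by 3.16 ± 1.31 and Tie1, an endothelial receptor, by 3.00 ± 1.07. Pecam1 and Cdh5, adhesion molecules of all endothelium, differed by 2.50 ± 1.00 and 2.46 ± 0.89 (both chosen after their values were seen). Other listed genes were not counted. Ly6c1 stood at -0.06 ± 0.28 and Erg at -0.09 ± 0.53, and Erg ranged from 5.72 to 19.2 CPM in low and from 4.402 to 20.4 in high libraries.

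Genes of the vessel wall split in the same way. In the pericyte and smooth muscle list, 8 of 16 were higher with a median of 0.89. Rgs5, a G-protein regulator typical of pericytes, had a low median of 4.03 CPM (0.453 to 73.3) and a high median of 81.9 CPM (41.9 to 113), a difference of 4.03 ± 1.59. Abcc9, the channel subunit SUR2 of pericytes and of striated muscle, differed by 3.99 ± 1.55, and its partner Kcnj8 by 2.87 ± 1.00 (Kcnj8 was chosen after its values were seen). Des heads this list too and belongs to fibres as well. Cspg4 and Mylk, also expressed by fibroblasts, stood at -0.38 ± 0.42 and -0.40 ± 0.32. Acta2, the actin of smooth muscle, differed by 0.05 ± 0.36. Of 6 lymphatic genes, 2 were higher, Reln (1.10 ± 0.96) and Flt4 (1.02 ± 0.82, chosen after its values were seen), whereas Prox1 (0.33 ± 0.50), Lyve1 (-0.14 ± 0.44), Pdpn (-0.16 ± 0.22) and Ccl21a (-0.44 ± 0.09) were not counted. In bulk RNA, fewer cells of a type and less RNA per cell cannot be told apart.

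Nerve genes did not follow as a group. Of 17 Schwann cell and myelin genes, 0 were higher and 0 lower, and the list's median of -0.38 came with group medians of -0.75, 0.22, 0.00 and -0.62 in WT early, Tg early, WT established and Tg established. Without Tg established replicate 6 the list's median was -0.11. Prx and Mal, myelin proteins, differed by -0.76 ± 0.74 and -0.98 ± 1.16, and by -0.52 and -0.48 without that library. The median of Mal was 0.118 CPM in low and 0.214 in high libraries, although its low libraries reached 11.5. Of the 17, 14 lay below 0, against 8846 of the 16082 genes overall. Scn7a had the largest positive difference, 0.95 ± 0.77, and Egr2 (-0.04 ± 0.46) and Pmp22 (-0.08 ± 0.37) lay near 0. Of 5 axon genes, 1 was higher: Prph, the peripherin of peripheral axons, went from a low median of 1.13 to a high median of 4.86 CPM (1.99 ± 0.87). Uchl1 and Stmn2 differed by 0.36 ± 0.35 and -0.005 ± 1.16. Nefl and Chat did not pass the filter and had at most 2 and 1 counts in a library.

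The neuromuscular junction gave 3 of 10 genes higher and a median of 0.19. Dok7, which activates the receptor kinase MuSK, differed by 2.57 ± 0.79, and Ache, acetylcholinesterase, by 1.43 ± 0.54. Chrnb1 (0.25 ± 0.27), Lrp4 (-0.45 ± 0.25) and Colq (-0.70 ± 0.64) were not counted, and the last 2 were lower in 4 of 4 groups. Lrp4 had medians of 242 CPM in low and 170.4 in high libraries.

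**Figure D3:**
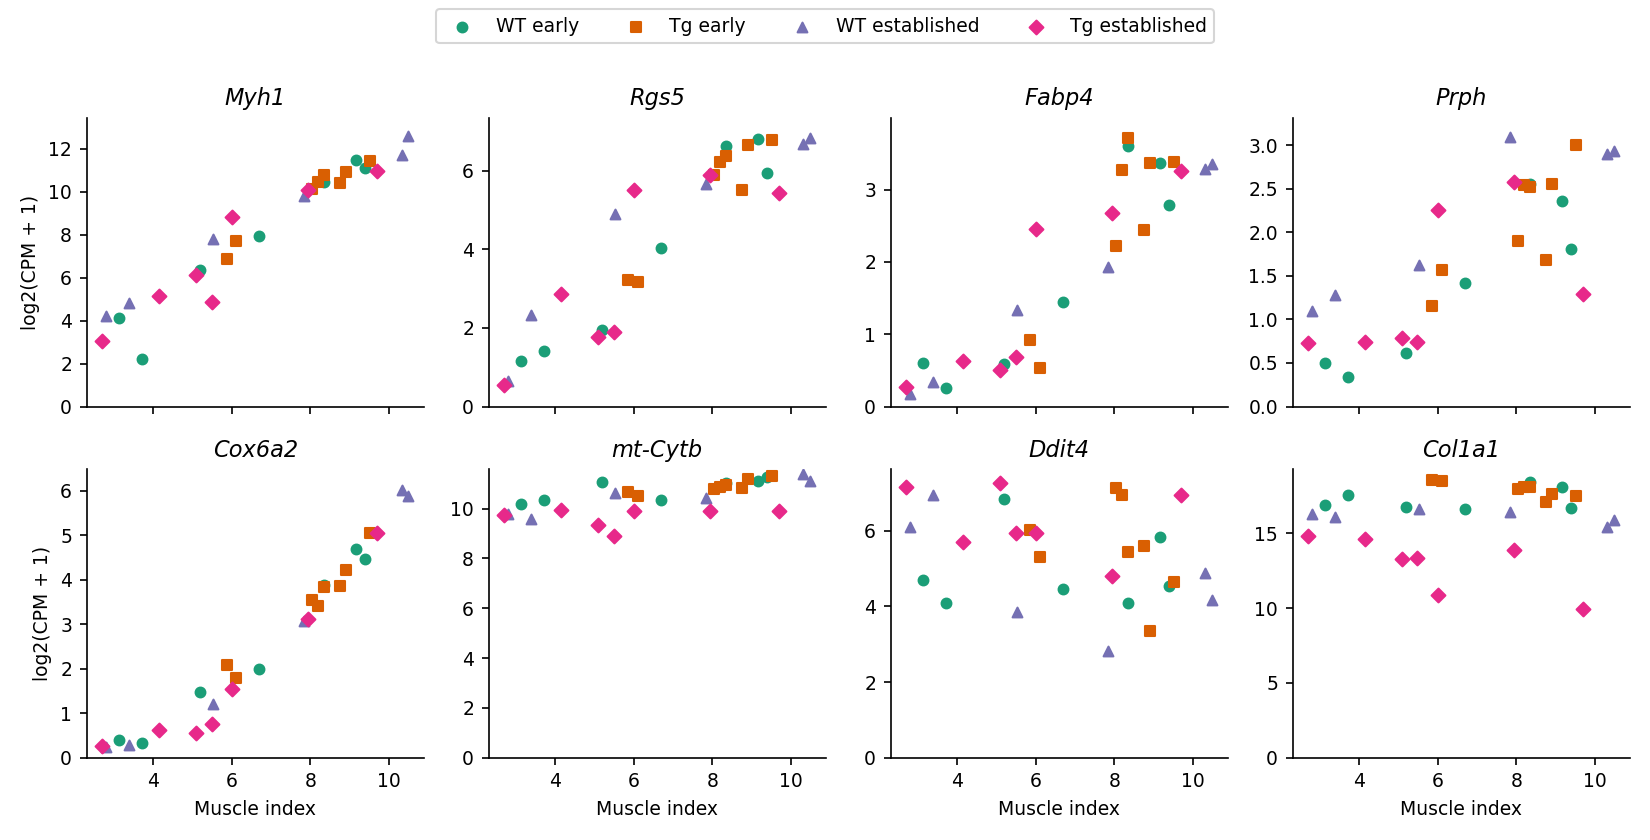
Level of 8 genes, as log2(CPM + 1) after TMM scaling, against the muscle index of the library, with groups by colour and symbol. Each point is 1 of 28 libraries. Myh1, Rgs5, Fabp4 and Cox6a2 are higher at a higher index in every group, Ddit4 overlaps between the sides in every group, and Col1a1 is lowest in Tg established libraries.

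Most mitochondrial genes lay slightly above 0, and the largest differences belonged to muscle-specific subunits. Of 13 mitochondrially encoded genes 0 were counted, although 12 lay above 0, with a median of 0.46 and group medians from 0.25 in Tg established to 0.87 in WT established. mt-Cytb ranged from 655 to 2124 CPM in low and from 946 to 2663 in high libraries (0.54 ± 0.33). mt-Nd2 and mt-Nd4 differed by 0.63 ± 0.42 and 0.61 ± 0.42, mt-Co2 by 0.30 ± 0.22 and mt-Nd3 by -0.01 ± 0.33. Of 42 nuclear respiratory chain genes, 3 were higher, all 3 of them the striated muscle subunits of cytochrome c oxidase. Cox6a2 differed by 4.17 ± 1.80, Cox8b by 2.20 ± 1.11 and Cox7a1 by 1.35 ± 0.54, while the median of the list was 0.43. In this list 41 of 42 genes lay above 0, with group medians from 0.23 in Tg established to 0.77 in WT established. Of 20 genes of fatty acid oxidation and the citric acid cycle, 2 were higher: Cpt1b, the carnitine palmitoyltransferase of muscle (1.32 ± 0.54), and Ppargc1a, a coactivator of mitochondrial biogenesis (1.01 ± 0.58). Coq8a fell just short at 0.94 ± 0.50, and Cpt2 and Esrra stood at 0.06 ± 0.14 and 0.07 ± 0.16. All 20 lay above 0, against 7236 of the 16082 genes overall.

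Pairs of a muscle form and another form of the same protein, chosen after their values were seen, showed the same split. Cox6a2 went from a low median of 0.541 to a high median of 17.7 CPM, and Cox6a1 had medians of 32.7 and 32.6. Eef1a2, the elongation factor of muscle and neurons, differed by 4.60 ± 2.06 and its general counterpart Eef1a1 by -0.03 ± 0.16. Rpl3l, a ribosomal protein of striated muscle, differed by 4.02 ± 1.73 and Rpl3 by 0.01 ± 0.15. The creatine kinases Ckm and Ckb differed by 4.24 ± 1.86 and -0.15 ± 0.36, and the phosphorylases Pygm and Pygb by 3.58 ± 1.45 and -0.07 ± 0.06. In 15 of 15 pairs the muscle form had the larger difference, as the choice of the pairs fixed. The smallest gaps belonged to Cox7a1 over Cox7a2 (1.35 and 0.36) and Slc25a4 over Slc25a5 (0.90 and 0.17).

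**Figure D4:**
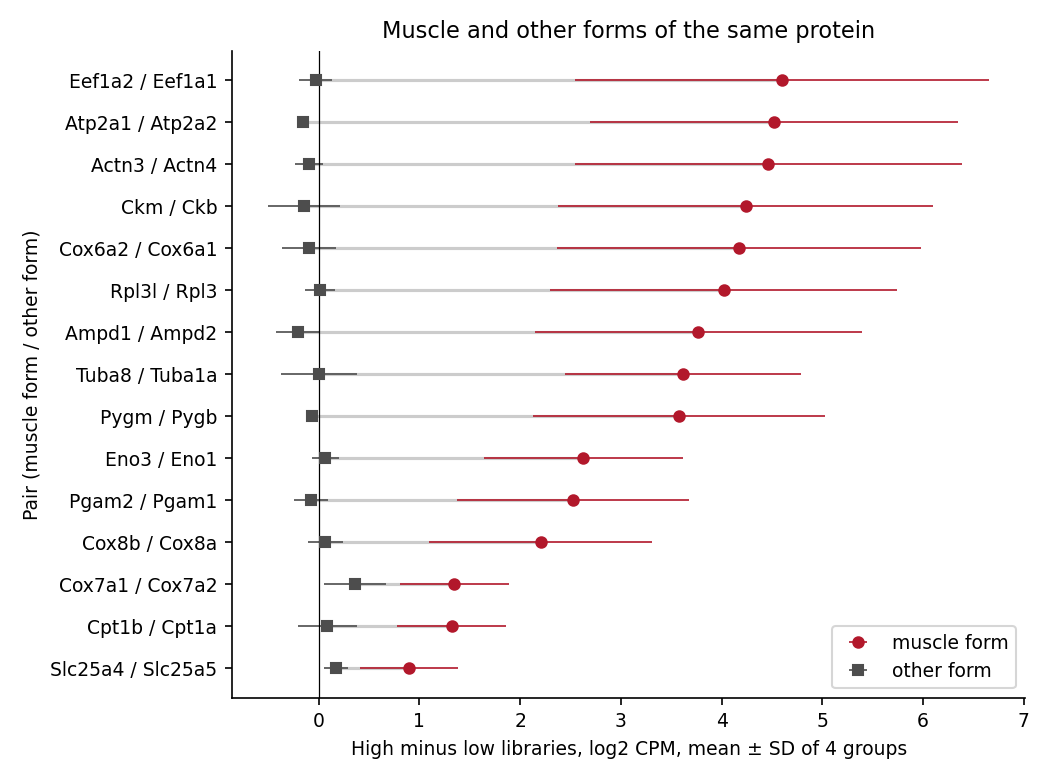
Difference between high and low libraries (log2 CPM, mean ± SD of the 4 groups) for 15 pairs of a muscle form (red circles) and another form of the same protein (grey squares). The muscle forms run from 0.90 (Slc25a4) to 4.60 (Eef1a2), and the other forms lie between -0.21 (Ampd2) and 0.36 (Cox7a2).

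Outside the lists, the 10 largest differences were those of Igfn1 (5.46 ± 2.79), Csrp3 (4.62 ± 1.95), Eef1a2, Nrap (4.42 ± 1.86), Ppp1r3a (4.36 ± 1.67), Tmem182 (4.30 ± 1.56), Art1 (4.28 ± 1.80), Lrrc2 (4.28 ± 1.603), Smpx (4.27 ± 1.75) and Mylk4 (4.26 ± 1.78). Csrp3 encodes the muscle LIM protein, Nrap an anchor of actin at the fibre end, and Ppp1r3a the glycogen-targeting subunit of protein phosphatase 1. Igfn1 ranged from 0.101 to 51.2 CPM in low and from 4.43 to 304 in high libraries. Csrp3, Eef1a2, Nrap, Lrrc2 and Smpx did not overlap in 4 of 4 groups, and Mylk4 did not overlap in 2.

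Some of the 470 genes shared the genome with a stronger one. For 21 of them, the gene overlapped a more abundant gene that was also higher, on the opposite strand in 17 cases. Ube2c, a ubiquitin-conjugating enzyme of the cell cycle, overlaps Tnnc2, the fast troponin C, on the opposite strand. Their mean levels were nearly equal, at 63.4 CPM for Ube2c and 62.7 for Tnnc2. Ube2c and Tnnc2 had high medians of 109.7 and 109.5 CPM and differences of 4.05 ± 1.76 and 4.19 ± 1.82. Rabep2 overlaps Atp2a1 and had a low median of 31.7 and a high median of 349 CPM, and Habp2 overlaps Nrap and differed by 4.15 ± 1.69. The strand setting of the counting is not given in the sources used here, so the reads of these genes and their partners cannot be told apart. They were chosen after their values were seen.

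Other cell types had list medians near 0. Adipocytes gave 2 of 7 genes higher, Car3 (4.25 ± 1.68) and Plin4 (1.59 ± 0.50), both of which muscle also expresses, and a median of 0.20, while Lpl (0.20 ± 0.28), Lipe (-0.15 ± 0.16) and Fasn (-0.27 ± 0.27) were not counted. Adipoq and Plin1 did not pass the filter, with at most 18 and 15 counts in a library. Red blood cells, keratinocytes, cartilage and bone, and macrophages gave 0 of 7, 0 of 7, 0 of 8 and 0 of 18 genes higher and 0 lower, with medians of 0.08, 0.04, -0.04 and -0.04. Their groups went both ways: the cartilage and bone median was 0.86 in WT early, -0.34 in Tg early, -0.07 in WT established and -0.49 in Tg established, and the macrophage medians ran from -0.43 in WT early to 0.22 in WT established. Krt5 and Krt14 had at most 1 and 4 counts in a library. Among macrophage genes, Ctss differed by 0.23 ± 0.63, Tyrobp by 0.10 ± 0.37 and Fcgr1 by -0.29 ± 0.44. Cytosolic ribosomal protein genes were tightly grouped, with 0 of 36 counted and a median of 0.09, from Rps9 (-0.04 ± 0.08) to Rpl19 (0.18 ± 0.06).

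Little was diluted. Genes of the contractile, calcium and fibre energy lists took 0.838 to 8.09% of all counts in high libraries (median 2.54%) and 0.143 to 1.57% in low libraries (median 0.268%). By that share alone, all other genes would be lowered by 0.02 to 0.07 on the log2 scale, depending on the group. The share of all genes counted as higher gave shifts from -0.03 in Tg early to -0.09 in WT established. Neither share includes fibre transcripts of genes outside these sets, so the full dilution was not measured. The differences between high and low libraries use TMM scaling, which is meant to offset such shifts, so they do not measure dilution. Only 4 genes were counted as lower: Ddit4, a stress-induced inhibitor of mTOR (-1.15 ± 0.64), and 3 genes at a mean under 1 CPM, Cldn19 (-1.07 ± 0.70), Dpp10 (-1.17 ± 1.15) and Serpina3b (-1.30 ± 0.88), which were named after their values were seen. Ddit4 ranged from 13.5 to 153 CPM in low libraries (median 67.3) and from 6.01 to 121 in high libraries (median 26.7), with every group overlapping.

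Tendon fibroblast genes, 42 in number, gave 0 higher and 0 lower and a median of -0.33, and 38 of the 42 lay below 0, against 8846 of the 16082 genes overall. The group medians were 0.06 in WT early, -0.04 in Tg early, -0.21 in WT established and -0.997 in Tg established. Col1a1, the chain of type I collagen, was 989, 1868 and 14669.8 CPM in the 3 high Tg established libraries and 9787, 24866.5 and 28261 in the 3 low ones, which overlapped. In WT established it was 44271, 59587 and 88042 in the high and 69217, 79506.5 and 100124 in the low libraries. The difference of Col1a1 was 0.65 in WT early and -2.66 in Tg established, and that of Chad, a cartilage and tendon matrix protein, -1.02 and -2.26. Scx, the tendon transcription factor (0.01 ± 0.99), Ctsk (0.07 ± 0.24) and Angptl7 (0.01 ± 0.53) differed little on average. Scx and Tnmd, which define tendon cells, were present in every library, at 6.64 CPM or more and 21.1 CPM or more, and both were lowest in Tg established replicate 5, the library of the highest index in its group.

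The genotype comparison, which did not use the index, asked whether muscle genes also separated Tg from WT mice. At the early stage, 6 of 15138 genes passed an FDR of 0.05 (edgeR quasi-likelihood test), 1 higher in Tg (0.00661%) and 5 lower (0.033%). With the replicate number as a block, 11 genes passed. Without the block, 1 of the 407 genes that followed muscle and were tested had an unadjusted p under 0.05, against 917 of all 15138. None of these 407 genes passed in either fit, and DESeq2 also gave 0. Their median log2 fold change was 0.38, with a median SE of 0.60 against 0.14 over all genes tested. At the established stage, 1032 of 15862 genes passed, 498 higher (3.14%) and 534 lower (3.37%), and between 361 (without WT established replicate 1) and 1166 (without Tg established replicate 7) passed when 1 library was left out. Of the 400 genes that followed muscle, 1 passed and 64 had an unadjusted p under 0.05, against 4213 of all 15862 genes. DESeq2 passed 23 of the 400 and the fit with the replicate number as a block 30. The fits that left out 1 library passed between 0 and 10 (without Tg established replicate 7). Of these 400, 370 lay below 0, with a median of -1.28 against 0.0054 over all genes. Their median SE was 0.88 against 0.15 over all genes. These genes were chosen for a shared difference along the index, so the 370 are not separate results. The 1 gene that passed was Map3k7cl (log2 fold change -4.54, SE 1.16, FDR 0.0367).

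The 4 index genes illustrated this spread. Ckm had a log2 fold change of 0.50 at the early stage (SE 0.84, FDR 0.939) and of -1.95 at the established stage (SE 1.31, FDR 0.353), where WT libraries ran from 4.11 to 1537 CPM and Tg libraries from 4.51 to 706 CPM. Acta1 had -2.35 (SE 1.23, FDR 0.239) at the established stage, Mylpf -1.39 (SE 1.38, FDR 0.535) and Tnnt3 -1.71 (SE 1.27, FDR 0.402). The 30 sarcomere genes differed together between high and low libraries, so they are not 30 separate results. At the established stage all 30 lay below 0, with a median of -1.63 against 0.0054 over all genes. Their median SE was 1.27, and 0 passed. Most of these values lay within 2 SE of 0. Tpm1 (-1.65, SE 0.65, FDR 0.129), Myh2 (-2.78, SE 1.20, FDR 0.159) and Tpm2 (-2.25, SE 1.06, FDR 0.193), named after their values were seen, lay further below 0 and did not pass the adjusted test.

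With the muscle index added as a covariate, the spread of these genes narrowed. The median SE of the genes that followed muscle went from 0.60 to 0.24 early and from 0.88 to 0.32 established, and their median log2 fold change from 0.38 to 0.00 and from -1.28 to -0.26. These genes were chosen for their difference along the same index, so the narrowing and the smaller fold changes follow from that choice and support nothing. At the established stage 1764 genes then passed, 775 higher (4.89%) and 989 lower (6.24%), and all 1032 genes that passed without the index were among them with the same sign, 58.5% of the larger set. Of the 400 genes that followed muscle, 22 passed with the index, 4 higher and 18 lower, and Map3k7cl kept a log2 fold change of -2.35 (FDR 0.0324). At the early stage 4 genes passed with the index, all of them among the 6.

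**Figure D5:**
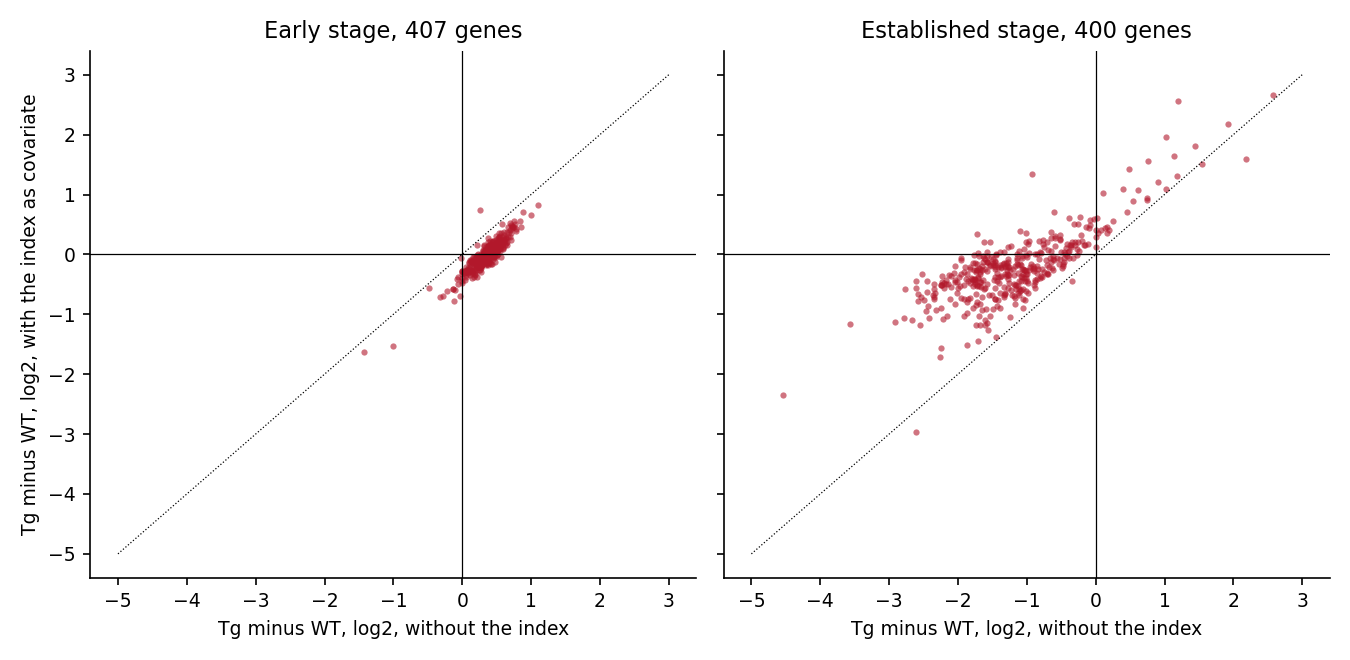
Tg minus WT log2 fold change of the genes that followed muscle, without (horizontal axis) and with the muscle index as a covariate (vertical axis), at the early (left, 407 genes) and established stage (right, 400 genes). Each point is 1 gene and the dotted line marks equal values. At the established stage the median moves from -1.28 to -0.26.

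Among the listed genes 0 passed the genotype test at the early stage and 31 at the established stage. Of the 31, 0 had been counted as higher with muscle, and Cnmd among them had not passed the filter of that comparison. From the muscle lists only Ncam1 passed (log2 fold change -1.11, SE 0.21, FDR 0.0153), which other cells also express, and from the satellite cell list only Cxcl14 (-1.54, SE 0.43, FDR 0.0473), a chemokine with medians of 193 CPM in low and 250.1 in high libraries. From the vessel lists, Acta2 (-0.72, SE 0.19), Smtn (-1.004, SE 0.24) and Prox1 (-1.67, SE 0.30) were lower and Lyve1 (0.68, SE 0.19) higher in Tg, while 0 of the 24 endothelial genes passed. From the nerve lists, Erbb3 (0.76, SE 0.20) and Tubb3 (1.33, SE 0.37) were higher, and from the mitochondrial lists Ogdh (-0.53, SE 0.14) was lower. None of the 13 mitochondrially encoded genes passed, with a median of -0.88 without and -0.65 with the index and 13 of 13 below 0. The medians over all genes were 0.0054 and 0.0119. Tendon fibroblast genes gave 1 higher and 11 lower of 42 without the index, and 2 higher and 14 lower with it, while calls over all genes went from 1032 to 1764. Col1a1 changed by -2.50 (SE 0.63, FDR 0.0356) without and by -2.91 (FDR 0.0134) with the index, and Tnmd, tenomodulin, by -2.03 (SE 0.53, FDR 0.0386) and -2.33 (FDR 0.0244). Without the index, the calls were lost in 7 (Smtn), 8 (Col1a1 and Ogdh), 9 (Tnmd, Acta2 and Erbb3) or 10 (Lyve1, Tubb3 and Cxcl14) of the 13 fits that left out 1 library, whereas Ncam1, Prox1 and Cd163 kept theirs in 13 of 13.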

How the data were processed

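Total RNA of tail tendon fascicles was depleted of ribosomal RNA, and paired-end reads of 150 bases were sequenced. The authors mapped them with STAR to GRCm39 with GENCODE release M26 and counted reads per gene with featureCounts; the deposited values are raw counts, neither scaled nor filtered. Tool versions, the strand setting and the treatment of reads with several positions are not given in the sources used here, so overlapping or near-identical genes are uncertain. Of 25719 identifiers, 25505 were named with GENCODE release M39 on the same assembly, and 3396 had no count. Library totals ranged from 9645598 to 66894396 counts, which sets the counting error of rare genes.

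Counts were filtered with filterByExpr (minimum count 10) and scaled by TMM in edgeR 4.0.16 (R 4.3.3). Log2 CPM used a prior count of 2, and the index a pseudocount of 1. Differences between high and low libraries were averaged over the 4 groups with equal weight. Tg and WT were compared within each stage by the quasi-likelihood test of edgeR, with no covariate and Benjamini-Hochberg adjustment over all genes tested, and an interaction term compared the stages. The methods were tested on simulated counts. The labels name mice as replicates, 1 library each.

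At the early stage, the deviations of same-numbered WT and Tg libraries from their group means were compared. Their correlation lay between 0.129 and 0.363 in 7 of 7 pairs. Differently numbered libraries were not compared, so these values cannot show whether the numbers pair libraries. No label gives a shared litter or day.

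The index genes, members and gene lists were chosen with earlier results of these data known. Named genes were the index genes, up to 3 with the largest and 2 with the smallest difference per list at a mean of at least 1 CPM, list genes past an FDR of 0.05 between genotypes, and up to 10 per direction outside the lists; others are marked. Alternatives were other scalings (none, RLE, muscle genes removed), other filters, a prior count of 0.5, another index, a slope on the index, DESeq2 1.42.0, a replicate block, the index as covariate, the established stage without its 2 males, and leaving out libraries singly. Leaving out the Tg early group was chosen after the data were seen. Promoters were read from GRCm39 with Python. Protein sequences were not used here. The values of 1 listed gene are not reported here.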

Additional observations from a re-analysis of the deposited data

Results flagged for a closer look

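Within groups, 28 sets of values (the index, the share of muscle genes, the 4 index genes and the library totals, in 4 groups each) were searched for a library far from the rest. For normally distributed values, chance flags about 1 in 20. The CPM sets were not log-transformed and share libraries, so that rate need not hold here. In 3 sets, Tg established replicate 5, the male of its group, stood apart: Ckm was 706 CPM against 297 in the next library, Mylpf 754.5 against 97.6, and Tnnt3 892 against 222. Its Acta1 did not stand apart, nor did its index on the log2 scale, at 9.70 against 7.94 in the next library.

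Of the 31 listed genes that passed between genotypes at the established stage, 22 differed in genotype effect between the stages by the interaction term (edgeR quasi-likelihood test, FDR of at most 0.05). The values are the established minus the early log2 fold change of Tg against WT. Only these 31 genes were searched, and Cnmd among them did not pass the filter over all 4 groups and had no interaction value. They were selected for their difference at the established stage, so the 22 of 31 follows in part from that choice. The share over all genes is not given here, and nothing is read from the count. Stage and sex cannot be told apart in these groups. Lower at the established stage were the tendon fibroblast genes Col1a1 (-3.04), Col1a2 (-2.69), Sparc (-2.49), Col11a1 (-1.95), Tnmd (-1.94), Scx (-1.41), Ctsk (-1.36), P4ha1 (-1.15) and Col12a1 (-0.997), the cartilage genes Matn3 (-3.00) and Col2a1 (-2.32), and Cxcl14 (-1.98), Prox1 (-1.73), Ncam1 (-1.27), Smtn (-0.95), Fasn (-0.92), Bpgm (-0.67) and Ogdh (-0.64). Higher at the established stage were Erbb3 (1.599), the macrophage genes Cd163 (1.44) and Ctss (1.43), and Rpl8 (0.53). None of the 22 was counted as higher with muscle.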

How the results depend on the processing

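Against 470 genes counted as higher, the alternatives gave between 365 (filter at a mean of 1 CPM) and 564 (no filter) in 11 settings, and between 449 and 496 when each library was left out. The 4 lower genes became 2 with the filter at a mean of 1 CPM, 12 with a prior count of 0.5, 7 with other index genes and 26 without the Tg early group, and between 2 (without Tg early replicate 4, WT established replicate 3 or Tg established replicate 6) and 7 (without Tg established replicate 7) when each library was left out. No difference counted for a named gene changed sign. Medians of lists moved by more than the spread of the groups for endothelium (1.17) and lymphatic endothelium (-0.13) at a filter of 1 CPM, and for developing fibres without a filter (1.53), where more genes of low count entered, and for red blood cells without Tg established replicate 4 (0.45). Another index moved 2 libraries to the other side.

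Genotype calls early were 25 with DESeq2 and between 4 and 12 (without WT early replicate 4) when each library was left out; the replicate block gave 11. At the established stage they were 2177 with DESeq2, 1764 with the index, 560 without the 2 established males, and between 361 (without WT established replicate 1) and 1166 when each library was left out. They also fell without Tg established replicates 1 (403) and 2 (463) and without WT established replicates 2 (416), 4 (445), 5 (456) and 6 (559), and to 684 without Tg established replicate 3. At the established stage the check of pairing was mixed, since the correlation of deviations was 0.31, 0.296, 0.688 and 0.496 in 4 pairs and 0.057 and -0.223 in 2, so the numbers were not treated as pairing, and the replicate block gave 924 calls, 30 of them genes that followed muscle. Without the block, 1 of the genes that followed muscle was called, which became 0 without the males and between 0 and 10 when each library was left out. Of the 31 listed genes called between genotypes, 242 values under these alternatives missed the threshold with the same direction and 397 passed it. The causes were not tested. In the shallowest library, with 9645598 counts, genes under 1 CPM rest on few counts.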
